A study of Mus musculus with 4 samples.

Results

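Toll-like receptors are membrane proteins that recognise microbial molecules, and the rows taken here were those of Tlr1 to Tlr9 and Tlr13. They were found by naming each RefSeq transcript of the deposited tables with its mouse gene symbol and, where a gene had several, keeping the one whose mean raw count was highest. All 10 receptors were found among 24530 genes. The libraries were poly(A) RNA sequencing of RAW 264.7 cells, a transformed mouse macrophage line. The cells stably expressed the long noncoding RNA Dnm3os (2 libraries) or carried the empty vector pcDNA 3.1(+) (2 libraries). Both kinds of cells were used between passage 3 and passage 6 and were grown with glucose at 5.5 mmol/L. Whether a stable line was 1 clone or a pool is not given in the sources used here, nor whether replicate libraries were separate cultures, so the p-values measure the spread between these libraries, which may be technical.

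Receptors of the cell surface mostly bind lipids and proteins of microbes, whereas receptors of the endosome bind nucleic acids. Ligand binding brings the intracellular TIR domains together, and the adaptor MyD88, or TRIF in the case of Tlr3 and endocytosed Tlr4, passes the signal to kinases that activate NF-kB and interferon regulatory factors. In macrophages these receptors are known for starting the inflammatory response to bacteria and viruses.

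Reads assigned to 1 transcript per gene numbered 29416272 and 34314038 in Dnm3os libraries 1 and 2, against 39769640 and 35447766 in empty vector libraries 1 and 2. The transcript Dnm3os was counted 208 and 260 times in the cells made to express it and was at 0 in both empty vector libraries. Of 9 macrophage markers 8 were tested, of which 4 were higher and 2 lower by edgeR, where 6.51% of all genes tested were higher and 5.75% lower. Their summed level was 9713 to 10207 CPM (counts scaled to a common library size) in Dnm3os cells and 8842 to 9009 CPM in empty vector cells, most of it Lyz2. Among the others Itgam was 2.01-fold and Fcgr1 1.68-fold as high in Dnm3os cells as in empty vector cells, Adgre1 was lower at 0.810-fold, and Mertk had 0 or 1 count in every library. The 4 T cell markers summed to 5.20 and 5.51 CPM in Dnm3os cells and 6.54 and 7.08 CPM in empty vector cells, and the 4 neutrophil markers to 5.95 and 5.19 CPM in Dnm3os cells and 4.54 and 4.25 CPM in empty vector cells. The T cell sum was nearly all Lck (152 to 260 counts) and the neutrophil sum all S100a8 (150 to 181 counts). The lymphocyte genes Cd3e, Cd2 and Ms4a1 and the neutrophil genes Ly6g and Mpo were at 0 in all 4 libraries. So were the fibroblast genes Col1a2 and Pdgfra. Cd3d had 1 to 5 counts, and Cd79a, Pax5, Col1a1 and Dcn had 0 to 2. The 4 dendritic cell markers, with Flt3 at 0, summed to 17.4 and 18.5 CPM in Dnm3os cells and 12.7 and 13.2 CPM in empty vector cells. Of these Itgax was called higher (means of 12.3 CPM in Dnm3os cells and 7.16 CPM in empty vector cells). Xcr1 was not called (5.47 and 5.61 CPM), and Zbtb46 had 2 to 9 counts. The part of these marker differences in the results below was not tested.

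The cells carrying Dnm3os had higher transcript levels of the surface receptors Tlr1, Tlr2 and Tlr4, by 1.51-fold, 1.12-fold and 1.12-fold. No endosomal receptor passed the test, but Tlr4 and the endosomal Tlr7 lay on either side of the threshold (adjusted p = 0.0498 and 0.0525 by edgeR). Their log2 fold changes were 0.16 and 0.13, and whether surface and endosomal receptors differ in response was not tested. Tlr5 was at 0 counts throughout. In all, 8 of the 10 receptors had enough counts to be tested, 3 of them were higher, 0 lower and 5 did not pass edgeR's quasi-likelihood test (two-sided, adjusted p under 0.05). Among all 13172 genes tested, 6.51% were called higher and 5.75% lower, or 12.3% in either direction. The receptors were chosen with earlier results of these data known, so their share is not an independent test. Tlr9 was among the 8 only because of its counts in the Dnm3os libraries, and without it the median log2 fold change of the other 7 was 0.16, against 0.00061 over all genes tested. No receptor was called lower by DESeq2 or limma-voom either, and at an unadjusted p under 0.05 edgeR had 6 higher, Tlr9 included, and 1 lower, Tlr3, with 12.1% of all genes tested higher and 11.1% lower at that level. DESeq2 called 1 receptor higher, Tlr2, with 3.07% of all genes higher and 2.75% lower. In bulk RNA, fewer cells that express a gene and less RNA per cell cannot be told apart.

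**Figure D1:**
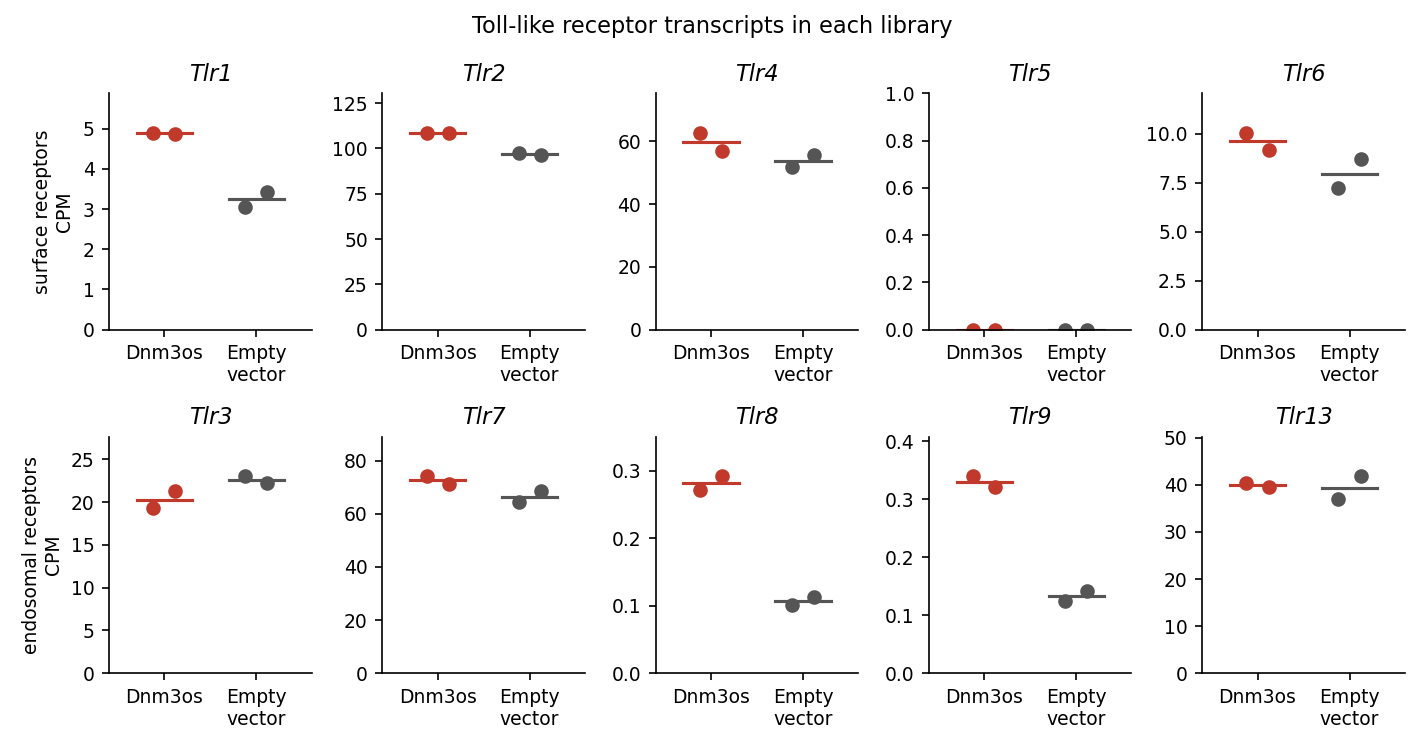
CPM of the 10 receptors in each library, with surface receptors in the upper row and endosomal receptors in the lower row; points are libraries and bars are means of 2 libraries. Dnm3os points lie above the empty vector points for Tlr1, Tlr2, Tlr4, Tlr6, Tlr7, Tlr8 and Tlr9, below them for Tlr3, and among them for Tlr13, while Tlr5 is at 0.

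In 6 tested receptors both Dnm3os values exceeded both empty vector values, and in 1 both were lower; 1 of the 6, Tlr9, passed the filter on low counts only through its Dnm3os libraries, so its direction was favoured by that filter. Over all genes tested the share was 26.2% in the higher and 25.0% in the lower direction, or 51.2% in either. The receptors lie on chromosomes 3 (Tlr2), 4 (Tlr4), 5 (Tlr1 and Tlr6), 8 (Tlr3), 9 (Tlr9), 1 (Tlr5) and X (Tlr7, Tlr8 and Tlr13). With 2 libraries against 2, an exact permutation test of a single receptor cannot give a two-sided p below 0.333, so the tests rest on the spread shared across genes.

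Tlr2, which pairs with Tlr1 or Tlr6 to bind bacterial lipoproteins, was the most abundant receptor. It had 108.6 and 108.6 CPM in Dnm3os cells, against 97.7 and 96.3 CPM in empty vector cells. Both Dnm3os libraries were higher than both empty vector libraries, and the Dnm3os pair differed by less than the counting error of either library (1.92 and 1.78 CPM). The log2 fold change was 0.16 ± 0.03 (SE; adjusted p = 0.00243 by edgeR), with a 95% interval of 1.06-fold to 1.18-fold. It was the receptor whose call held under all 14 alternatives tried, with adjusted p from 0.000333 to 0.0445 by edgeR, DESeq2 or limma-voom.

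Tlr1, the partner of Tlr2 for triacylated lipopeptides, had the largest difference among the receptors that were called. It had 4.89 and 4.87 CPM in Dnm3os cells (144 and 167 counts), against 3.06 and 3.42 CPM in empty vector cells (122 and 121 counts). The groups did not overlap. The log2 fold change was 0.59 ± 0.14 (SE; adjusted p = 0.00473 by edgeR), with an interval of 1.24-fold to 1.84-fold. DESeq2 did not call it (adjusted p = 0.126), nor did edgeR without Dnm3os library 2 (adjusted p = 0.0587).

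Tlr6, the partner of Tlr2 for diacylated lipopeptides, lies beside Tlr1 on chromosome 5. It had 10.06 and 9.19 CPM in Dnm3os cells, against 7.22 and 8.72 CPM in empty vector cells. Both Dnm3os libraries were above both empty vector libraries, but the difference did not pass the threshold (log2 fold change 0.27 ± 0.10, adjusted p = 0.102 by edgeR). The log2 fold change was 0.41 without empty vector library 2, the higher of that pair, and 0.14 without empty vector library 1. Tlr6 was called under 1 of 14 alternatives, the fit without empty vector library 2.

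Counts of Tlr1 and Tlr6 are uncertain as separate measurements, since their transcripts share sequence. Of the 50-base windows of the Tlr1 transcript 15.3% also occurred in Tlr6, and their coding sequences were 78.0% identical over aligned bases. The longest identical stretch ran over 229 bases, from base 1468 to 1696 of the Tlr1 coding sequence and from base 1507 to 1735 of that of Tlr6. That stretch is shown with 20 flanking bases on each side, 5′ to 3′ as transcribed, from the GENCODE M21 transcripts; capitals mark the 2 bases at which the genes differ.
Tlr1: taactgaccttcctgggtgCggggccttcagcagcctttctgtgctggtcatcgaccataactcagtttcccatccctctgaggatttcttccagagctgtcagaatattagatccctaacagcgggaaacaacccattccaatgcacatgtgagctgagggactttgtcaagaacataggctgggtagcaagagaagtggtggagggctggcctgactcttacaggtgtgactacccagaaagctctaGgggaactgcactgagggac
Tlr6: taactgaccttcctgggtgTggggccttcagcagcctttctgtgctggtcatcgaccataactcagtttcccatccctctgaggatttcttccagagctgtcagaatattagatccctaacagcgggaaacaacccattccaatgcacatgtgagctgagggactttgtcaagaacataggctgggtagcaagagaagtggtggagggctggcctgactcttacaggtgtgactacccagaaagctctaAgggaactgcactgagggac
A short read that falls between the capitals could have come from either gene, and how the authors' counting treated such reads is not given in the sources used here. Apart from Tlr6, which also shares windows with Ctsq, and Tlr3, which shares 68 with an antisense gene, no 50-base window of another receptor occurred in a second gene.

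Summed into 1 feature, an alternative chosen after the data were seen, Tlr1 and Tlr6 had 14.95 and 14.06 CPM in Dnm3os cells, against 10.28 and 12.1 CPM in empty vector cells. The sum was higher by a log2 fold change of 0.37 ± 0.09 (adjusted p = 0.00668 by edgeR). If reads of the shared sequence were counted for both genes, the sum holds them more than once. Tlr1 held 32.7% and 34.6% of the summed counts in Dnm3os cells (exact binomial 95% intervals 28.4 to 37.3% and 30.4 to 39.1%), against 29.8% and 28.2% in empty vector cells (25.4 to 34.4% and 24.0 to 32.7%). Both Dnm3os shares were above both empty vector shares, and the difference in share was not tested. These intervals cover counting error only.

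Tlr4, the receptor of bacterial lipopolysaccharide, had 62.7 and 57.1 CPM in Dnm3os cells, against 51.7 and 55.6 CPM in empty vector cells. The groups did not overlap, but Dnm3os library 2 and empty vector library 2 lay close together. At a log2 fold change of 0.16 ± 0.05 Tlr4 was just inside the threshold (adjusted p = 0.0498 by edgeR). It was called under 6 of 14 alternatives, and its log2 fold change was 0.10 without empty vector library 1 and 0.088 without Dnm3os library 1 (adjusted p = 0.341 and 0.469 by edgeR).

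Tlr5, the flagellin receptor, had 0 counts in every library, which allows at most 0.102 CPM in the shallowest one. Tlr11 and Tlr12, further mouse receptors that bind profilin, were also at 0 in all 4 libraries.

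**Figure D2:**
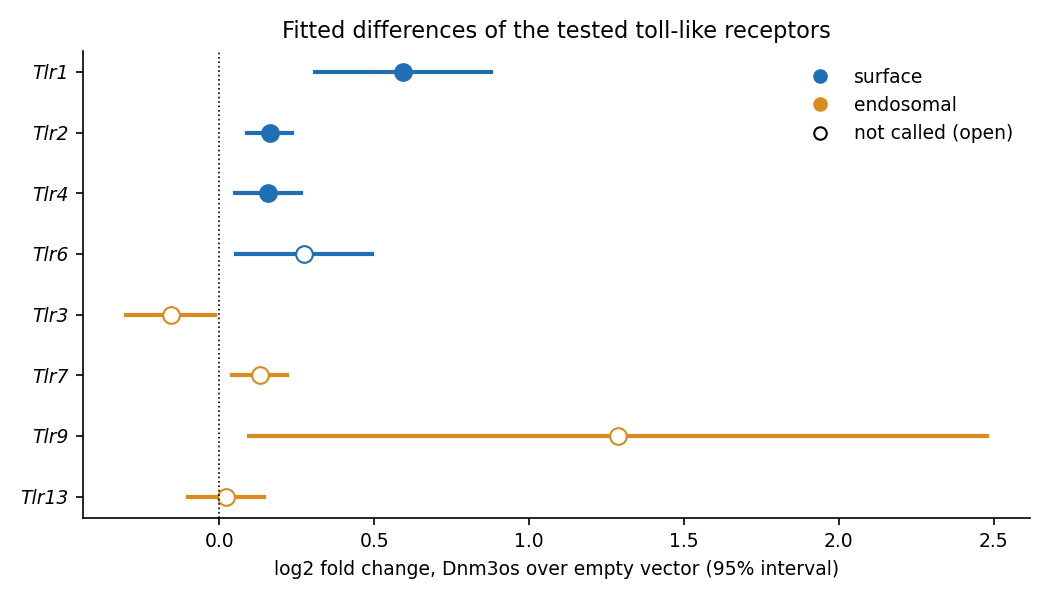
Log2 fold change of the 8 tested receptors, Dnm3os over empty vector, with 95% intervals from edgeR; filled points passed the adjusted p of 0.05 and open points did not. The 3 filled points are the surface receptors Tlr1, Tlr2 and Tlr4, and the widest interval is that of Tlr9, which rests on 21 counts in Dnm3os cells and 10 in empty vector cells.

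Among the endosomal receptors, Tlr7, a sensor of single-stranded RNA, was just outside the threshold. It had 74.0 and 71.2 CPM in Dnm3os cells, against 64.3 and 68.5 CPM in empty vector cells. The groups did not overlap, and the log2 fold change was 0.13 ± 0.04 (adjusted p = 0.0525 by edgeR; interval 1.03-fold to 1.16-fold). With the replicate number as a block it passed (adjusted p = 0.0464 by edgeR), although the labels do not say that equal numbers mark paired libraries. Its 5 RefSeq transcripts gave log2 ratios of mean CPM of 0.13 in every case, and the transcript with the fewest counts held 96.6% of the counts of the highest, so they hold largely the same reads.

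Tlr13, a receptor of bacterial ribosomal RNA found in mice and absent in humans, had 40.4 and 39.5 CPM in Dnm3os cells, against 37.0 and 41.8 CPM in empty vector cells. Both Dnm3os values lay between the empty vector values. The fold was 1.01, with an interval of 0.932 to 1.11 (adjusted p = 0.894 by edgeR), so changes beyond about that interval were not seen, while smaller ones could not be resolved.

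Tlr3, the receptor of double-stranded RNA that signals through TRIF, was the receptor with a negative estimate. It had 19.3 and 21.3 CPM in Dnm3os cells, against 23.0 and 22.3 CPM in empty vector cells. Both Dnm3os libraries were lower than both empty vector libraries, but the log2 fold change of -0.16 ± 0.07 did not pass (adjusted p = 0.163 by edgeR). An antisense gene, Gm45542, overlaps 2.65% of the Tlr3 transcript, and the strand setting of the counting is not given in the sources used here, so reads of the pair in those bases cannot be told apart.

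Tlr9, the receptor of unmethylated CpG DNA, and Tlr8, a further receptor of single-stranded RNA, were close to the detection limit. Tlr9 had 10 and 11 counts in Dnm3os cells, against 5 and 5 in empty vector cells, and Tlr8 had 8 and 10 counts, against 4 and 4. For both genes each Dnm3os library had more counts than each empty vector library, in spite of the smaller Dnm3os totals. Over all genes tested, 26.2% had both Dnm3os values above both empty vector values. Tlr9 passed the filter on low counts only through its Dnm3os libraries, which favoured this direction, and Tlr8 did not pass it. Over the pooled counts the ratio was 2.48 for Tlr9 (exact 95% interval 1.12 to 5.90) and 2.66 for Tlr8 (1.10 to 7.06), and these intervals cover counting error only.

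Tlr9 entered the test only through its counts in the Dnm3os libraries and was not called (log2 fold change 1.29 ± 0.57, adjusted p = 0.173 by edgeR). Tlr8 was not tested after the filter on low counts, and without that filter it was not called (log2 fold change 1.37 ± 0.74, adjusted p = 0.294 by edgeR). With the counts of its 3 isoforms summed Tlr8 was called (adjusted p = 0.0266 by edgeR; log2 ratios of the single isoforms 1.40 to 1.61), but the isoform with the fewest counts held 92.3% of the counts of the highest, so this sum counts largely the same reads more than once.

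Levels of different receptors were compared as CPM per kilobase of transcript, with lengths of the matching GENCODE transcripts. Averaged over the groups, Tlr2 stood highest at 34.1 CPM per kilobase and made up 40.4% of the summed level of the 10 receptors. It was followed by Tlr7 (17.8), Tlr4 (13.9), Tlr13 (9.77) and Tlr3 (4.87 CPM per kilobase). Tlr6 at 2.39 and Tlr1 at 1.34 CPM per kilobase came next, both below their partner Tlr2. Tlr9 and Tlr8, at 0.0667 and 0.0566 CPM per kilobase, were 20.1-fold or more below Tlr1. The ranges over the 4 libraries did not overlap between neighbours in this order except for Tlr9 and Tlr8, which do not differ beyond their spread. The order was the same in both groups.

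**Figure D3:**
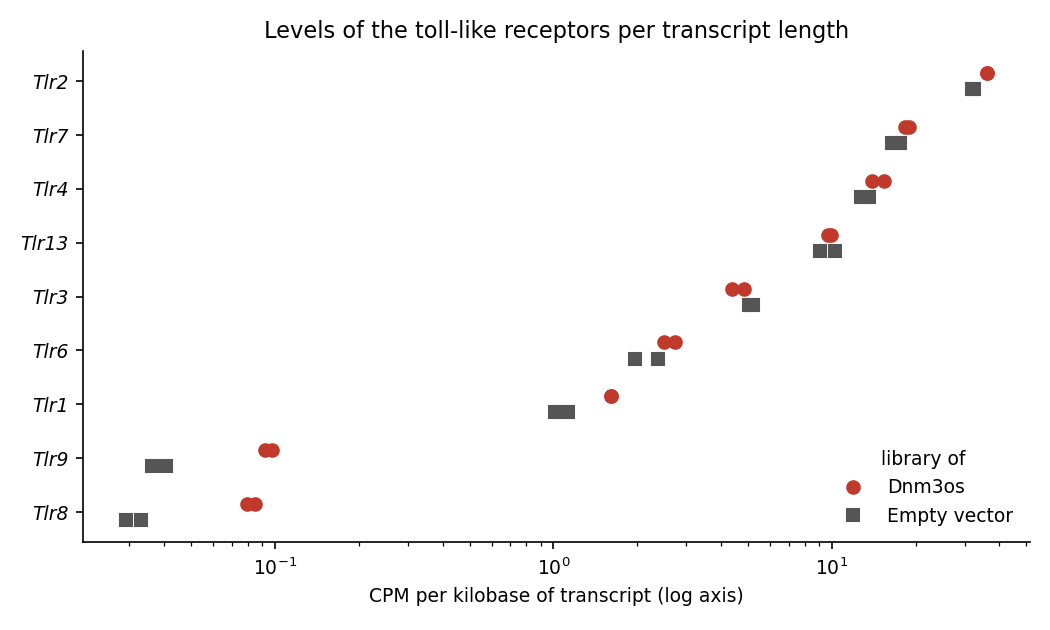
CPM per kilobase of transcript on a log axis for the 9 receptors with counts, each point 1 library. Tlr2 lies between 31.9 and 36.0, Tlr1 between 1.01 and 1.62, and Tlr8 and Tlr9 below 0.1 CPM per kilobase.

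Summed over all 10 receptors, the level was 321 and 312 CPM in Dnm3os cells, against 284 and 297 CPM in empty vector cells. The surface receptors summed to 186 and 180 CPM in Dnm3os cells, against 160 and 164 CPM in empty vector cells, without overlap. The endosomal receptors summed to 134.3 and 132.6 CPM in Dnm3os cells, against 124.5 and 132.8 CPM in empty vector cells, with overlap. The difference in response between surface and endosomal receptors was not tested.

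The 8 receptors with a promoter in the RefSeq tables had 10 windows, each from 250 bases before to 50 bases after a transcription start. They were searched on both strands for 3 motifs: the consensus of NF-kB, AGGAAGT as a core of the myeloid factor PU.1, and GAAA, any 2 bases and GAAA again as an element of interferon regulatory factors. NF-kB matches were found for Tlr2, at 173 and 8 bases before the start, and for Tlr3, at 211 bases before it. PU.1 matches were found for Tlr1, in 1 of its 2 windows, and for Tlr6 and Tlr9, and an interferon regulatory element for Tlr6. Tlr4 and Tlr7 had no window and were not searched. Among 32851 promoter windows, 8.46% held the NF-kB motif, 9.35% that of PU.1 and 3.44% the interferon regulatory element. A match is a run of letters and not evidence of binding. The windows of the 2 called receptors in the tables and of Tlr3 are shown because these receptors had estimates in opposite directions. They run from 250 bases before to 10 bases after the start, on the minus strand of GRCm38.p6, with matches in capitals. Of the 2 starts of Tlr1, the 1 whose window holds a match is shown.
Tlr2, chr3:83841599-83841858: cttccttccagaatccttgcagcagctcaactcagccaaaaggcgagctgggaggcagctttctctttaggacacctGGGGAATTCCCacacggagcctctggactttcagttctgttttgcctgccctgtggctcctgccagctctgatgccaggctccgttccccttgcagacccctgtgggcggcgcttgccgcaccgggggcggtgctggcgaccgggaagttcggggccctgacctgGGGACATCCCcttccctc
Tlr1, chr5:64933549-64933808: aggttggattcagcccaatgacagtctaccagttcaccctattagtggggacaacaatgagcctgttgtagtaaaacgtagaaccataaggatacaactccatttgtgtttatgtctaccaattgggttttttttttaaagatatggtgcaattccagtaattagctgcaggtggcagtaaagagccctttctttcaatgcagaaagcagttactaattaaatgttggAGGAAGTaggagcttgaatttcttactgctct
Tlr3, chr8:45410371-45410630: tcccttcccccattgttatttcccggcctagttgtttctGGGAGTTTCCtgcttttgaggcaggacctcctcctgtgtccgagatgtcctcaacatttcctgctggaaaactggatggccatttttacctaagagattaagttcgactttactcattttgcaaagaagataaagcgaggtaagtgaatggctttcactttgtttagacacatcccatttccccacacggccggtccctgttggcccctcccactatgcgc
Tlr2, which was higher, and Tlr3, whose estimate was negative and did not pass, both hold an NF-kB match in the letters shown.

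Genes that act with the receptors were taken from a list of 51, of which 48 were tested. Of these 7 were higher (14.6%, against 6.51% of all genes tested), 2 were lower (5.75% of all genes tested were) and 39 did not pass, with a median log2 fold change of 0.00072. This list and its parts were chosen with earlier results of these data known, so their shares are not an independent test. The largest difference was in Ly86, the partner of the receptor homologue Cd180, which had 10.74 and 10.18 CPM in Dnm3os cells, against 2.38 and 1.53 CPM in empty vector cells (log2 fold change 2.40 ± 0.15, adjusted p = 4.38e-10 by edgeR). Cd180 itself had 100.4 and 99.4 CPM in Dnm3os cells, against 96.2 and 98.4 CPM in empty vector cells, and did not pass (adjusted p = 0.593 by edgeR).

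The coreceptors that present lipopolysaccharide to Tlr4 had estimates near 0. Cd14 had a log2 fold change of 0.03 ± 0.02 and Ly96, which encodes MD-2, of 0.07 ± 0.10, and neither passed (adjusted p = 0.496 and 0.749 by edgeR). Of the 5 tested coreceptors and ligand-handling genes 2 were higher, Ly86 and Cd36, and 0 lower. Over all genes tested 6.51% were higher and 5.75% lower. Cd36, a scavenger receptor that hands ligands to Tlr2 and Tlr6, had a log2 fold change of 0.13 ± 0.03 (adjusted p = 0.00123 by edgeR).

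Of 10 genes of receptor trafficking and processing, 2 were higher and 0 lower, where 6.51% and 5.75% of all genes tested were. They were Hsp90b1, the folding chaperone gp96 of these receptors (0.08 ± 0.02 on the log2 scale, adjusted p = 0.00625 by edgeR), and Ctsl, a protease that cleaves endosomal receptors (0.15 ± 0.03, adjusted p = 0.000615 by edgeR). Unc93b1, which carries the endosomal receptors from the endoplasmic reticulum, had 185.0 and 185.2 CPM in Dnm3os cells, against 182.6 and 184.2 CPM in empty vector cells, and did not pass (adjusted p = 0.869 by edgeR).

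Of 20 adaptors and kinases, 3 were higher (15%, against 6.51% of all genes tested), 0 lower (against 5.75%) and 17 did not pass. Ticam2, the adaptor TRAM that links Tlr4 to TRIF, had 10.87 and 9.77 CPM in Dnm3os cells, against 5.84 and 7.05 CPM in empty vector cells (log2 fold change 0.68 ± 0.11, adjusted p = 9.66e-05 by edgeR). Irak3, an IRAK family member that restrains receptor signalling and is also counted among the inhibitors, had 16.2 and 14.4 CPM in Dnm3os cells, against 10.03 and 9.45 CPM in empty vector cells (0.65 ± 0.09, adjusted p = 1.15e-05 by edgeR). The kinase Ikbke had a log2 fold change of 0.22 ± 0.06 (adjusted p = 0.0107 by edgeR). Myd88 and Ticam1, which encode the main adaptors MyD88 and TRIF, had log2 fold changes of -0.01 ± 0.04 and 0.04 ± 0.07 and did not pass (adjusted p = 0.883 and 0.806 by edgeR).

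Among 7 tested inhibitors 1 was higher, Irak3, and 1 lower, Pik3ap1, an adaptor that couples receptors to PI3 kinase. Over all genes tested 6.51% were higher and 5.75% lower. Pik3ap1 had 164.7 and 163.6 CPM in Dnm3os cells, against 181.1 and 181.6 CPM in empty vector cells (log2 fold change -0.14 ± 0.03, adjusted p = 0.00255 by edgeR). Of 5 transcription factors 0 were higher and 1 lower, to set beside the same shares of all genes tested. The lower one was Irf7, which acts downstream of Tlr7 and Tlr9, with a log2 fold change of -0.11 ± 0.03 (adjusted p = 0.0102 by edgeR). Both tested ubiquitin ligases, Peli1 and Rnf216, did not pass. Hsp90b1 and Ikbke were not called by DESeq2 or without either Dnm3os library. Irf7 was not called without either Dnm3os library, and neither Irf7 nor Ikbke without empty vector library 1, while Pik3ap1 was not called without Dnm3os library 2.

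**Figure D4:**
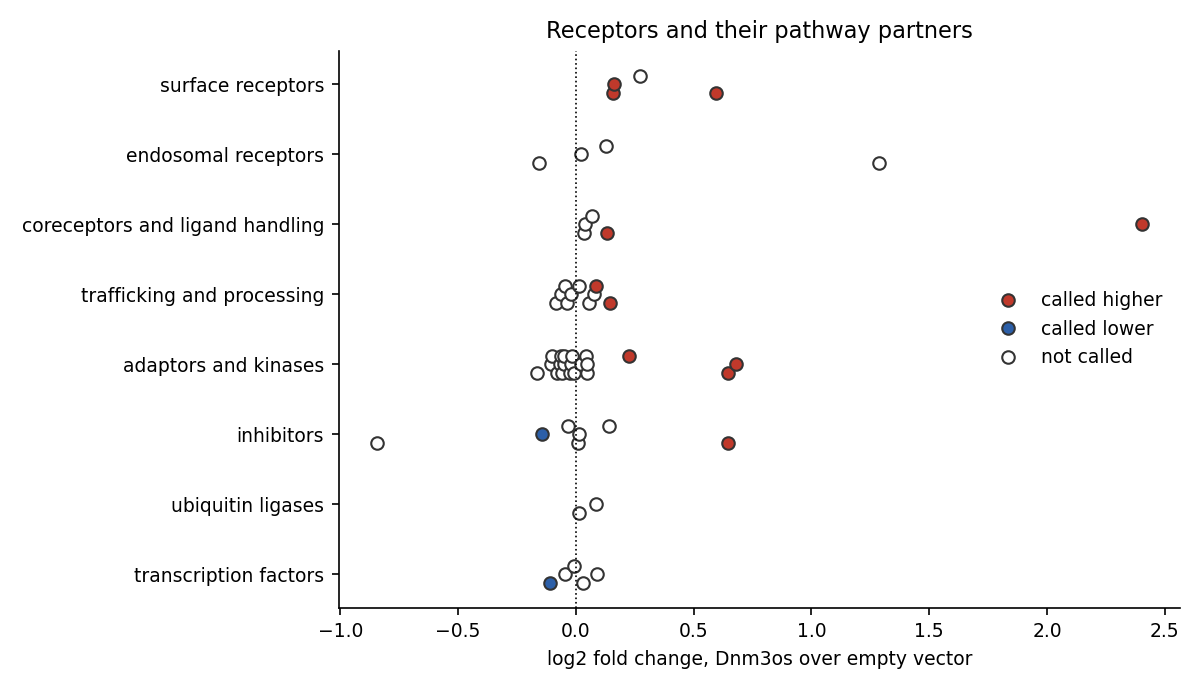
Log2 fold change, Dnm3os over empty vector, of each tested receptor and pathway gene by group; red points were called higher, blue points lower, and open points did not pass. Ly86 lies at 2.40, Ticam2 and Irak3 at 0.68 and 0.65, and most adaptors and kinases lie close to 0.

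**Figure D5:**
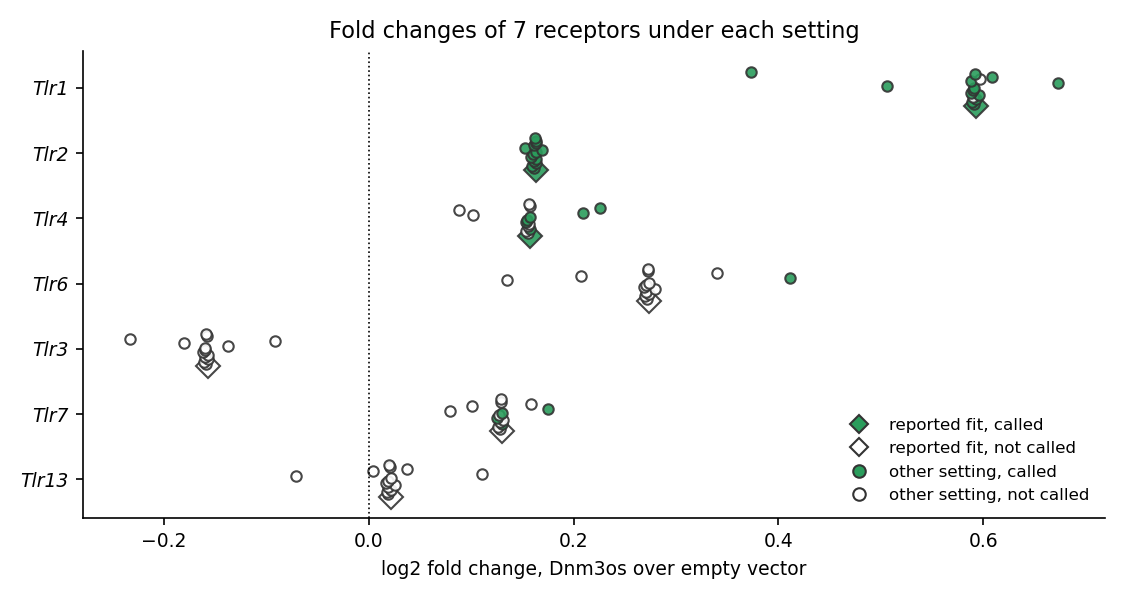
Log2 fold change of 7 receptors under the reported fit (diamonds) and under each alternative (circles), filled where the adjusted p was under 0.05. Tlr2 is filled throughout, Tlr4 is filled under 6 of its 14 alternatives, and Tlr3 and Tlr13 are never filled; the circle at 0.37 in the row of Tlr1 is the sum of Tlr1 and Tlr6.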

How the data were processed

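Poly(A) RNA of RAW 264.7 cells was sequenced in 4 libraries, 2 per group, per the labels. The submitters' processing notes name TopHat, Bowtie2, DESeq2 and mm9, with no versions or roles. Per the file headers, the authors deposited raw and normalized counts, here of 35786 RefSeq transcripts. In the deposited normalized column, a signal, each raw count is multiplied by a constant of its library; it was used for 1 alternative.

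Gene symbols came from RefSeq (35499 transcripts) and GENCODE (178) tables; the 109 without a name stood for themselves, and the 45S ribosomal RNA transcript was left out. Leaving out that transcript and keeping the highest transcript per gene removed 39.4% of the counts summed over all transcripts. Transcripts of a gene can hold largely the same reads, as those of Tlr7 do, so this is not a share of reads lost. After filterByExpr and TMM scaling, genes were tested with edgeR 4.0.16 in R 4.3.3 (glmQLFit, robust), with Benjamini-Hochberg adjustment over 13172 genes; each SE was derived from the fold change and its F statistic. The procedure was tested on simulated counts. CPM use the TMM-scaled library sizes. Detection limits are 3 counts per library and cover counting error only. The alternatives, with DESeq2 1.42.0 and limma 3.58.1 among them, are in the closing section. Coordinates and sequences are of GRCm38, not of the build in the notes. All receptors and 8 partners were named whatever their values, and of each partner list up to 4 called members. The members and lists were chosen with earlier results of these data known.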

Additional observations from a re-analysis of the deposited data

How the results depend on the processing

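Tlr2 was called under all 14 alternative settings. Tlr1 was not called by the DESeq2 test (log2 fold change 0.59) and was called in 3 of 4 fits that left out a library (0.51 to 0.67). Tlr4 was not called with DESeq2 size factors (0.16), upper-quartile factors (0.15), the DESeq2 test (0.16), limma-voom (0.16), isoforms summed (0.16) or the authors' constants (0.16), and ranged from 0.088 to 0.23 with a library left out. Tlr7 was called with total counts (0.13), no filter on low counts (0.13), a replicate block (0.13) and without empty vector library 2 (0.18), and ranged from 0.079 to 0.18 with a library left out; Tlr6 ranged from 0.14 to 0.41. Tlr13 changed sign without empty vector library 1 (-0.071) and reached 0.11 without empty vector library 2, and was called in neither. The causes were not tested.

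Receptors called higher numbered 1 by DESeq2, where 404 of all genes were higher and 362 lower, and 2 to 5 with a library left out, the 5 without empty vector library 2. With a library left out, 465 to 808 genes were higher (492 without Dnm3os library 1, 465 without Dnm3os library 2) and 396 to 786 lower (455 and 396 in the same fits). Partners called lower numbered 0 without Dnm3os library 2, 1 without Dnm3os library 1 and 3 without empty vector library 1, where Ctsb and Ctss joined Pik3ap1. The labels do not say that equal numbers mark paired libraries, so the replicate block was kept as an alternative. Deviations of libraries with the same number had a correlation of -0.063 over 13172 genes. With 2 libraries per group this cannot decide whether they pair. With the block, 868 genes were higher and 782 lower, and no receptor or partner but Tlr7 changed its call. Where a library was left out, its group had 1 library, taken to vary as the other group does. Depth limits Tlr8 and Tlr9, at 4 to 11 counts.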
